A study of Homo sapiens with 3 samples.

Results

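The 10 genes described here are regulators of epithelial identity and genes of the epithelial cell surface: the transcription factors GRHL2, ELF3 and OVOL1, the splicing factors ESRP1 and ESRP2, the adhesion and surface genes CDH1, EPCAM and MUC1, the membrane protease ST14 and the small GTPase RAB25. They were taken by gene symbol, and all 10 were found among the 23277 symbols measured. RNA was sequenced from the established cervical cell line CaSki, which derives from an epidermoid carcinoma, to look for genes under the control of NANOG and HDAC1. The 3 groups were cells carrying FLAG-tagged NANOG in the pMSCV retroviral vector and given an siRNA against HDAC1, cells carrying the same NANOG vector and given an siRNA against GFP, and cells carrying the empty pMSCV vector and given the GFP siRNA. NANOG is a homeodomain factor that maintains pluripotency, and HDAC1 removes acetyl groups from histones as the catalytic part of corepressor complexes. With 1 library in each group, differences could not be set against the spread between replicates, and none was tested. HDAC1 siRNA without NANOG was not analysed here, and whether the transduced cells were a clone or a pool is not given in the sources used here.

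Epithelial cells keep their identity through a small set of transcription factors that maintain junction and surface genes. GRHL2, a grainyhead factor, and OVOL1, a zinc finger repressor, oppose the mesenchymal program, and ELF3 is an epithelium-specific ETS factor. ESRP1 and ESRP2 direct the epithelial splice forms of transcripts such as CD44 and FGFR2. E-cadherin, encoded by CDH1, holds neighbouring cells together, and repressors such as SNAI1, SNAI2 and ZEB1, which can recruit histone deacetylases, silence it in the epithelial-mesenchymal transition.

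Levels are in FPKM, which divides the fragments of a gene by its transcript length and by the mapped total of the library. Differences are differences of log2(FPKM + 1) between 2 libraries, and a gene was called when its difference was at least 1 in size, which is 2-fold on that scale. All 10 genes were among the 11399 genes that averaged 1 FPKM or more over the libraries and were compared. The values summed to between 600749 and 681947 FPKM per library, and the depth in fragments is unknown. NANOG was at 325 FPKM with NANOG and HDAC1 siRNA, 298 FPKM with NANOG and GFP siRNA and 0.0357 FPKM with the empty vector. HDAC1 was at 12.8, 108 and 19.02 FPKM in that order, so it was lowest under its own siRNA, but the library of NANOG cells with GFP siRNA also stood well above the empty vector library. That library enters both the NANOG comparison and the siRNA comparison. Of 8 squamous epithelium markers, 6, 5 and 6 were at 1 FPKM or more in these libraries, with summed levels of 2628, 2805 and 3039 FPKM. DSC3 and DSG3, desmosomal cadherins, were under 1 FPKM in every library, and TP63, the basal epithelial transcription factor, was at 1.29 FPKM or less. The other 5 were abundant, at 24.5 FPKM or more with NANOG and HDAC1 siRNA, and differed in direction. The keratin gene KRT5 was at 540 FPKM with NANOG and HDAC1 siRNA, 959 FPKM with NANOG and GFP siRNA and 555 FPKM with the empty vector, and KRT6A was likewise higher with NANOG and GFP siRNA than with the empty vector (0.79 and 0.73). KRT14 and KRT17 were lower (-0.57 each), as was SFN (-0.28). None of the 6 fibroblast, 5 leukocyte and 4 endothelial markers reached 1 FPKM in any library. The summed level of each of these 3 marker lists lay between 0.0871 and 0.493 FPKM.

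**Figure D1:**
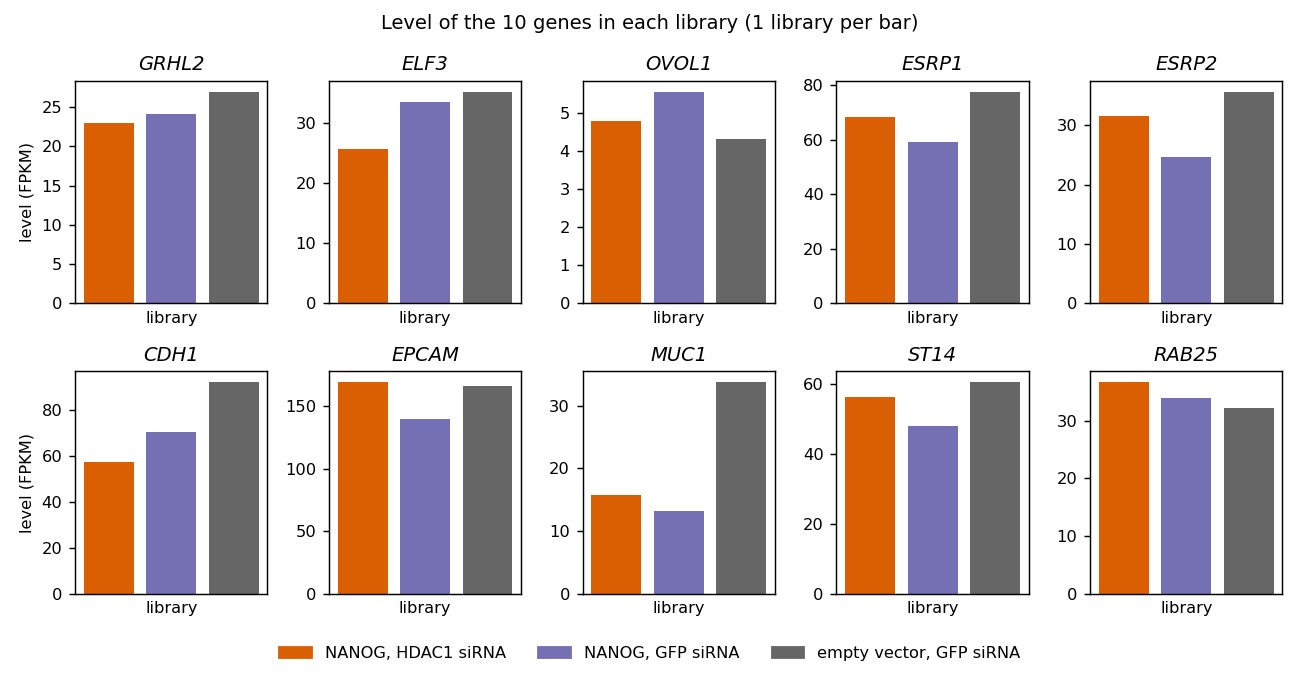
Level of each of the 10 genes in FPKM (vertical axes, each starting at 0 and scaled to its gene), with 1 bar per library and no replicates. MUC1 differs most between libraries, at 15.7, 13.2 and 33.8 FPKM from left to right, whereas RAB25 stays between 32.2 and 36.7 FPKM.

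In NANOG cells with GFP siRNA, 8 of the 10 genes were lower than in empty vector cells with GFP siRNA, where 50.8% of all genes compared were lower. MUC1 alone was at least 2-fold lower, and 1.2% of all genes were. The median difference of the 10 genes was -0.29, against -0.01 over all genes, and it was -0.25 over the other 9 genes without MUC1. In bulk RNA, fewer cells with a transcript and less of the transcript per cell cannot be told apart. Apart from MUC1, the 10 genes lay between -0.51 and 0.31, inside the range of -0.60 to 0.51 that runs from the 5th to the 95th percentile of all genes.

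With HDAC1 siRNA in NANOG cells, 6 of the 10 genes were higher and 4 lower than with GFP siRNA, where 53.4% of all genes were higher and 46.6% lower. None of the 10 reached 2-fold, and 0.298% of all genes did in either direction. The 5th to 95th percentile of all genes ran from -0.358 to 0.321, and 2 of the 10 lay outside it, ELF3 at -0.375 and ESRP2 at 0.336. The median difference was 0.16, against 0.01 over all genes. ESRP2, EPCAM, MUC1, ST14, ESRP1 and RAB25 were the 6 higher genes, and ELF3, CDH1, OVOL1 and GRHL2 were the 4 lower ones. Rescaling each library to TPM put the median of all genes at 0.18, and relative to it 4 of the 10 genes lay below and 6 above, as they did as deposited. GRHL2, at -0.07 as deposited, was at 0.11 under TPM and so turned direction, which left 3 lower genes. Under TPM 18.7% of all genes were lower in this comparison.

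NANOG cells with HDAC1 siRNA differ from empty vector cells with GFP siRNA in both the transgene and the siRNA, and this comparison shares a library with each of the others. Here 7 of the 10 genes were lower, where 50.2% of all genes were lower. Again MUC1 alone was at least 2-fold lower, against 0.807% of all genes. MUC1 and CDH1 lay outside the range of -0.494 to 0.393 from the 5th to the 95th percentile of all genes. Under TPM, which put the median of all genes at 0.13 and 30.1% of them lower, 6 of the 10 genes were lower. MUC1 was then at -0.94 and no longer called. The median difference was -0.18, against -0.0010 over all genes. Of the 10 genes, 7 had their highest level in the empty vector library, 2 in NANOG cells with HDAC1 siRNA and 1 in NANOG cells with GFP siRNA. The same split was not counted over all genes, and it restates the comparisons above.

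**Figure D2:**
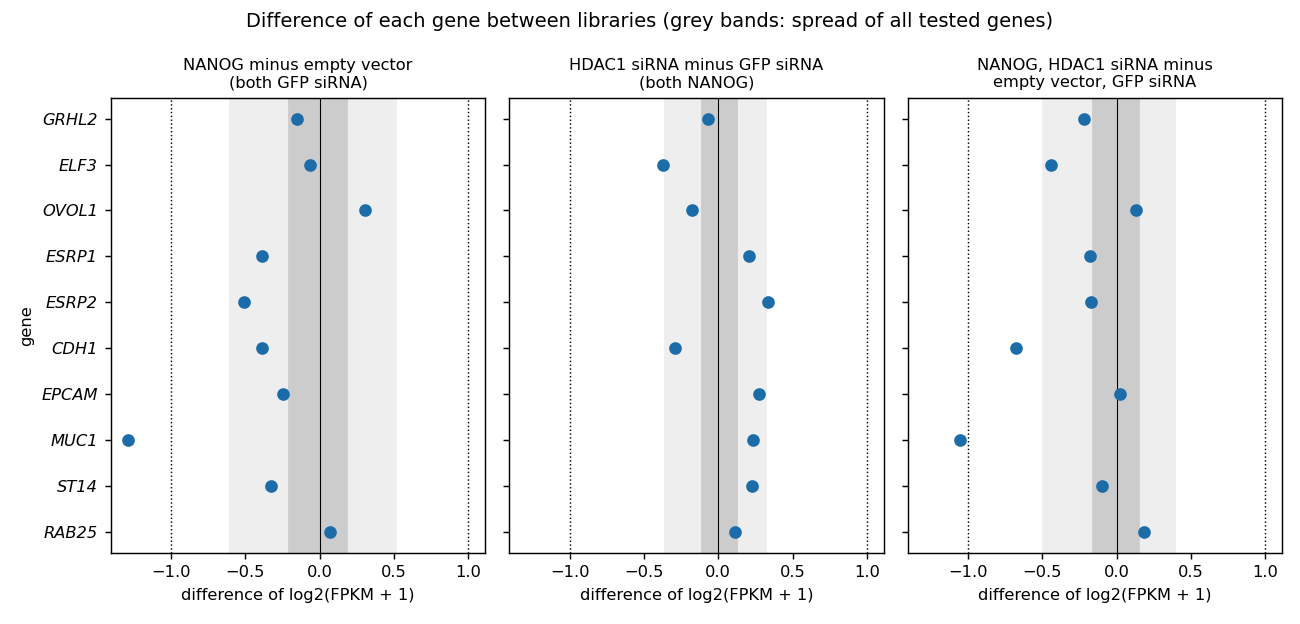
Difference of log2(FPKM + 1) for each of the 10 genes (points, 1 pair of libraries per panel) with the range of all 11399 genes compared, dark grey from the 25th to the 75th and light grey from the 5th to the 95th percentile. MUC1 lies left of the dotted 2-fold line in the left and right panels, at -1.29 and -1.06, and the other points lie inside the 2-fold lines.

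Among the transcription factors, GRHL2 was at 23.0 FPKM with NANOG and HDAC1 siRNA, 24.1 FPKM with NANOG and GFP siRNA and 27.0 FPKM with the empty vector. The differences were small, at -0.16 for NANOG against empty vector, and 59.1% of the 3897 genes within 2-fold of its mean level differed by as much or more in size. ELF3 was at 25.6 FPKM with NANOG and HDAC1 siRNA, 33.5 FPKM with NANOG and GFP siRNA and 35.2 FPKM with the empty vector. It was thus nearly level between the libraries with GFP siRNA (-0.07) and lower in the HDAC1 siRNA library, with a difference of -0.37 from GFP siRNA. Of the 3508 genes of similar level, 4.16% were as low or lower in that comparison, and 7.55% differed by as much or more in size. OVOL1 was the least abundant of the 10 genes in every library, at 4.79, 5.55 and 4.30 FPKM in these same libraries. It was higher in NANOG cells with GFP siRNA than in empty vector cells, by 0.31, the largest positive difference of the 10 genes in that comparison, and 30.6% of genes of similar level differed by as much or more in size.

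The splicing factors were lower together in the NANOG library with GFP siRNA. ESRP1 was at 68.4 FPKM with NANOG and HDAC1 siRNA, 59.2 FPKM with NANOG and GFP siRNA and 77.7 FPKM with the empty vector. ESRP2 was at 31.5, 24.7 and 35.7 FPKM in these same libraries. Between NANOG and empty vector cells the difference was -0.39 for ESRP1 and -0.51 for ESRP2. Between HDAC1 siRNA and GFP siRNA it was 0.21 for ESRP1 and 0.34 for ESRP2. Both genes therefore stood between the other libraries in the HDAC1 siRNA library, at -0.18 and -0.17 against empty vector. Of genes of similar level, 13.6% were as low as ESRP1 and 7.72% as low as ESRP2 for NANOG against empty vector. In either direction, 21.7% and 11.9% differed by as much or more in size. ESRP1 exceeded ESRP2 by a ratio of FPKM of 2.17, 2.39 and 2.18 in the 3 libraries. Splice forms were not measured, since each symbol has 1 value per library.

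CDH1 was lowest with HDAC1 siRNA and highest with the empty vector. It was at 57.2 FPKM with NANOG and HDAC1 siRNA, 70.1 FPKM with NANOG and GFP siRNA and 92.0 FPKM with the empty vector. The difference was -0.39 between NANOG and empty vector, -0.29 between HDAC1 siRNA and GFP siRNA and -0.68 for the HDAC1 siRNA library against empty vector. In the last of these comparisons 276 of 11399 genes were lower than CDH1, and 2.47% of the 1865 genes of similar level were as low. In either direction, 3.49% of them differed by as much or more in size. CDH1, ELF3 and GRHL2 were the 3 genes that were lowest in the HDAC1 siRNA library. EPCAM, which encodes a homophilic adhesion and signalling molecule, was the most abundant of the 10 genes in every library. It was at 169 FPKM with NANOG and HDAC1 siRNA, 139.9 FPKM with NANOG and GFP siRNA and 166 FPKM with the empty vector. The NANOG library with GFP siRNA was the low one, with a difference of -0.25 from empty vector and of 0.27 between HDAC1 siRNA and GFP siRNA. Of genes of similar level, 41.0% differed by as much or more in size in the first of these comparisons and 13.0% in the second.

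MUC1, which encodes a heavily glycosylated mucin of the apical surface, was at 15.7 FPKM with NANOG and HDAC1 siRNA, 13.2 FPKM with NANOG and GFP siRNA and 33.8 FPKM with the empty vector. Both NANOG libraries were below the empty vector library, with differences of -1.06 with HDAC1 siRNA and -1.29 with GFP siRNA, or 2.15-fold and 2.56-fold lower in FPKM. For NANOG against empty vector, 73 of 11399 genes were lower than MUC1, and 0.685% of the 4089 genes of similar level were as low. In either direction, 0.880% of them differed by as much or more in size. Between the NANOG libraries it was higher by 0.23 with HDAC1 siRNA, and 21.3% of genes of similar level differed by as much or more in size. Part of the MUC1 coding sequence is made of tandem repeats, so its level also depends on how fragments from the repeats were placed, which is not given in the sources used here. Of 7 listed genes of other membrane mucins and their partners, 1 averaged 1 FPKM or more. MUC4, MUC13, MUC16 and MUC20 were under 1 FPKM in every library, and MUC15 and MUC21 were listed at 0 in all 3. The mucin names here were chosen after their values were seen, apart from those listed at 0. The measured one was LGALS3, whose product galectin-3 binds MUC1, at 50.8, 49.9 and 43.1 FPKM in these same libraries.

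ST14 encodes matriptase, a membrane-bound serine protease of epithelial cells. It was at 56.3 FPKM with NANOG and HDAC1 siRNA, 48.03 FPKM with NANOG and GFP siRNA and 60.5 FPKM with the empty vector. It differed by -0.33 between NANOG and empty vector and by 0.22 between HDAC1 siRNA and GFP siRNA, and 28.3% and 21.5% of genes of similar level differed by as much or more in size. Against empty vector the HDAC1 siRNA library was at -0.10, which turned to 0.03 under TPM. RAB25, an epithelial relative of RAB11 that returns endosomal cargo to the surface, varied least. It was at 36.7 FPKM with NANOG and HDAC1 siRNA, 33.9 FPKM with NANOG and GFP siRNA and 32.2 FPKM with the empty vector, a range of 1.14-fold. It was higher in NANOG than in empty vector cells by 0.07, and 81.2% of genes of similar level differed by as much or more in size.

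Promoter windows from RefSeq (GRCh38.p14, whereas the values were made on hg19) were matched for 3 of the 10 genes, and each runs from 250 bases before to 50 bases after an annotated transcript start. They are shown for MUC1, the gene with the largest difference, beside ELF3 and RAB25, which differed little between NANOG and empty vector cells. MUC1 (chr1:155192866-155193165, minus strand) has 2 windows in the table, of which the first is shown, ELF3 lies at chr1:202010337-202010636 on the plus strand and RAB25 at chr1:156060910-156061209 on the plus strand. Capitals mark CACCTG, the E-box form that SNAI and ZEB repressors are known to bind, searched on both strands (CAGGTG on the other).
MUC1: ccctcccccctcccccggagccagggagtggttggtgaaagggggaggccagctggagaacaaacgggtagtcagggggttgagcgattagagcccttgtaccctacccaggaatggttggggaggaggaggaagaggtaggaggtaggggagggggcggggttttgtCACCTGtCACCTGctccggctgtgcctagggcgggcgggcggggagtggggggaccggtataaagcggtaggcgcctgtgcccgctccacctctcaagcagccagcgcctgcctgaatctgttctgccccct
ELF3: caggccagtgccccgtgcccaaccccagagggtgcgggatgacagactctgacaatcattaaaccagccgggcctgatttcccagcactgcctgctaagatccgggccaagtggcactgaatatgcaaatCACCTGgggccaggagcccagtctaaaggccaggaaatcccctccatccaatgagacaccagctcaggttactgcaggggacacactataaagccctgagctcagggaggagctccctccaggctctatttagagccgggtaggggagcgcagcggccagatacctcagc
RAB25: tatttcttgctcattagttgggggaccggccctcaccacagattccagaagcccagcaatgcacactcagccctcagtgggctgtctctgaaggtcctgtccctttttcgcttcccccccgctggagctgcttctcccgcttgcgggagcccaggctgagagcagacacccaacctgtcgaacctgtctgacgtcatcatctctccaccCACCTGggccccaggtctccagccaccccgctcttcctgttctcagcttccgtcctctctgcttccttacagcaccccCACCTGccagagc
The MUC1 window held 2 matches, whose first bases lay 82 and 75 bases before the start, the ELF3 window 1 match, 120 bases before the start, and the RAB25 window 2 matches, 41 bases before and 37 bases after the start. Of 35116 promoter windows of the same length, 20.6% held at least 1 such match. The homeodomain core TAAT (ATTA on the other strand) occurred 1 time in each of the 3 windows, with 0 overlaps with the E-box matches, and 50.2% of all windows held it. The E-box letters were thus present both in the window of the gene that was called lower and in windows of genes that were not, and a match says nothing on whether a factor binds.

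Relatives and partners of the 10 genes showed how each level compares within its family. CDH1 was below CDH3, which encodes P-cadherin, in every library, at ratios of FPKM of 0.557 with NANOG and HDAC1 siRNA, 0.681 with NANOG and GFP siRNA and 0.753 with the empty vector. CDH2, which encodes N-cadherin, was at 10.2, 8.95 and 11.4 FPKM in these same libraries, so CDH1 exceeded it 5.62-fold, 7.83-fold and 8.05-fold. GRHL2 was the main grainyhead gene, with GRHL1 at 4.76, 4.09 and 4.27 FPKM and GRHL3 under 0.1 FPKM in every library. OVOL2 exceeded OVOL1, at 12.6, 12.9 and 10.4 FPKM, and the ETS gene EHF was at 19.7, 21.6 and 17.3 FPKM. RAB25 was close to RAB11B, which was at 32.3, 32.9 and 32.0 FPKM, and above RAB11A, at 24.1, 22.3 and 23.7 FPKM.

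**Figure D3:**
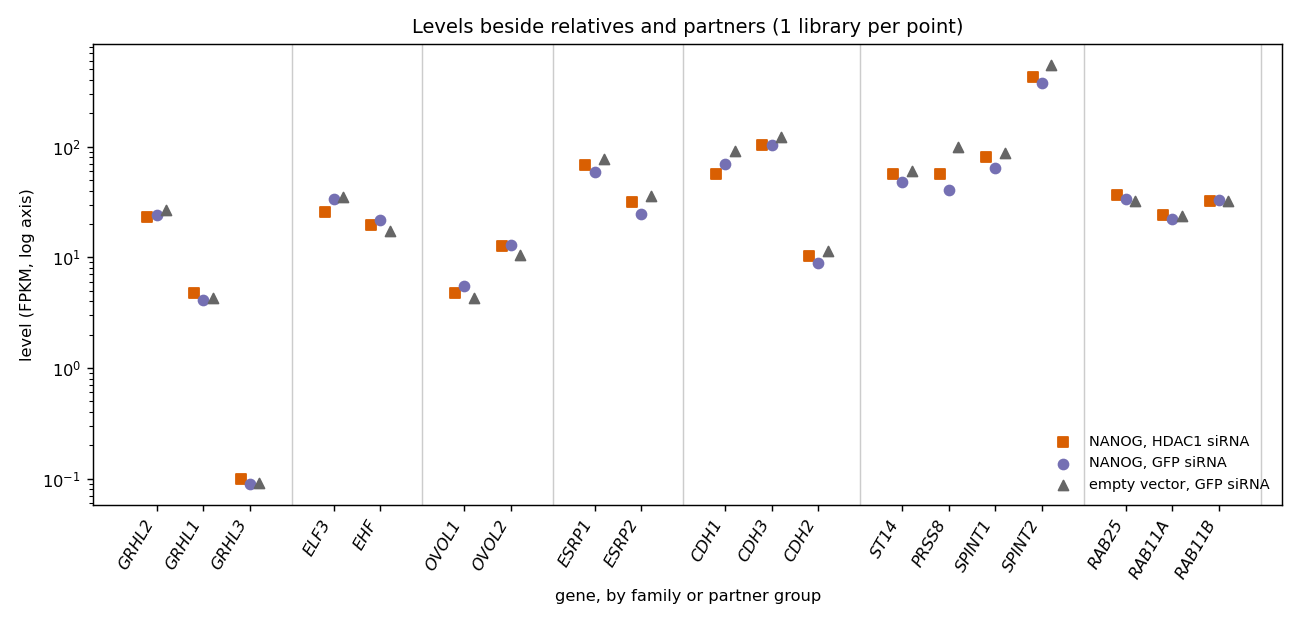
Levels in FPKM (vertical log axis) of the genes and of relatives or partners, grouped by family, with squares for NANOG with HDAC1 siRNA, circles for NANOG with GFP siRNA and triangles for the empty vector with GFP siRNA. GRHL3 lies far below GRHL2, and PRSS8 shows the widest spacing of the genes drawn, which leave out MUC1, at 56.2, 40.5 and 99.7 FPKM.

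Among the repressors known to silence epithelial genes, 3 of 12 were measured at a mean of 1 FPKM or more. All 3 were higher in NANOG cells with GFP siRNA than in empty vector cells, where 50.8% of all genes were lower. Their median of 0.33 was the value of SNAI2, with SNAI1 at 0.52 and TCF3 nearly level at 0.02. The 10 genes had a median of -0.29. Under TPM 1 of the 3, TCF3, was lower. With no filter on low values 2 repressors were lower with NANOG and the median was 0.11, and with a filter at 5 FPKM the median was 0.17. Between HDAC1 siRNA and GFP siRNA the median of the 3 was -0.21, against -0.03 with no filter. SNAI2, which encodes the repressor SLUG, was the most abundant, at 37.7 FPKM with NANOG and HDAC1 siRNA, 45.9 FPKM with NANOG and GFP siRNA and 36.4 FPKM with the empty vector. SNAI1 was at 2.28, 2.81 and 1.66 FPKM, and TCF3, which encodes E2A proteins, at 16.2, 15.9 and 15.7 FPKM. The difference of SNAI2 was 0.33 between NANOG and empty vector and -0.28 between HDAC1 siRNA and GFP siRNA. ZEB1 and ZEB2, named after their values were seen, stayed under 1 FPKM, and TWIST2, PRRX1 and GSC were listed at 0 in all 3 libraries.

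Of the other epithelial transcription factors, 6 of 8 measured were lower and 2 higher with NANOG (median -0.12), and 6 were higher and 2 lower with HDAC1 siRNA (median 0.09; 0.04 with a filter at 5 FPKM). None reached 2-fold. Under TPM all 8 were higher with HDAC1 siRNA, where 18.7% of all genes were lower. KLF4, a factor of both epithelia and pluripotent cells, was at 53.6 FPKM with NANOG and HDAC1 siRNA, 40.9 FPKM with NANOG and GFP siRNA and 46.6 FPKM with the empty vector, a difference of 0.38 between the NANOG libraries.

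Genes of cadherin and nectin junctions, a list that includes CDH2, CDH3 and nectin genes beside the catenins, were mostly lower with NANOG. Of 11 such genes, 10 were lower and 1 higher (median -0.30), none by 2-fold, where 50.8% of all genes were lower. With HDAC1 siRNA 3 were lower and 8 higher (median 0.08), where 46.6% of all genes were lower. Under TPM 1 of the 11 was lower with HDAC1 siRNA, where 18.7% of all genes were. JUP, which encodes plakoglobin, was at 141 FPKM with NANOG and HDAC1 siRNA, 135 FPKM with NANOG and GFP siRNA and 209.9 FPKM with the empty vector. MLLT4, which encodes the nectin-binding protein afadin, was at 12.0, 11.1 and 17.5 FPKM, and CTNNA1, which encodes alpha-catenin, at 133, 124 and 168 FPKM. For these 3 genes the NANOG libraries were close to each other and both below the empty vector library. VCL, which encodes the actin linker vinculin, was the exception, at 33.6, 55.3 and 47.1 FPKM, with a difference of 0.23 between NANOG and empty vector and of -0.70 between HDAC1 siRNA and GFP siRNA.

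Matriptase acts in a cascade with the protease prostasin, encoded by PRSS8, and is held in check by the inhibitors encoded by SPINT1 and SPINT2. Of 7 measured partners of ST14, 6 were lower and 1 higher with NANOG (median -0.46), and 2 were lower and 5 higher with HDAC1 siRNA (median 0.19; 4 lower and a median of 0.037 with no filter on low values). As deposited, 50.8% of all genes were lower with NANOG and 46.6% with HDAC1 siRNA. Under TPM all 7 were lower with NANOG, where 56.1% of all genes were, and 0 with HDAC1 siRNA, where 18.7% were. PRSS8 was 2-fold lower with NANOG, at 56.2 FPKM with NANOG and HDAC1 siRNA, 40.5 FPKM with NANOG and GFP siRNA and 99.7 FPKM with the empty vector. Its difference was -1.28 between NANOG and empty vector and 0.46 between HDAC1 siRNA and GFP siRNA. SPINT2 was the most abundant, at 430.2, 378 and 549 FPKM, and SPINT1 was at 80.4, 64.7 and 87.7 FPKM. ST14 itself, with the same order of libraries, had a smaller difference from empty vector than PRSS8 and SPINT2 (-0.54). MET, which encodes the receptor of hepatocyte growth factor, was at 30.2, 31.7 and 49.5 FPKM and so was lower in both NANOG libraries.

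Of 8 measured relatives and partners of EPCAM, 5 were lower and 3 higher with NANOG (median -0.17; -0.31 with a filter at 5 FPKM), and 3 were lower and 5 higher with HDAC1 siRNA (median 0.06). With NANOG 4 were lower after rescaling to the same upper quartile and 6 under TPM, where 47.3% and 56.1% of all genes were. As deposited, 50.8% of all genes were lower with NANOG and 46.6% with HDAC1 siRNA, also for the lists that follow here. The tetraspanin gene CD9 was at 175 FPKM with NANOG and HDAC1 siRNA, 164 FPKM with NANOG and GFP siRNA and 264 FPKM with the empty vector. CLDN7, a claudin that binds EPCAM, was at 137, 112 and 169.7 FPKM in these same libraries. PSEN2, a subunit of the gamma-secretase that cleaves EPCAM, went the other way, at 7.54, 10.2 and 5.80 FPKM. Of 11 measured genes of RAB11 recycling, 7 were lower and 4 higher with NANOG (median -0.06), and 5 were lower and 6 higher with HDAC1 siRNA (median 0.01; -0.01 after rescaling to the same upper quartile). RAB11FIP5, a RAB11 effector, was at 21.5, 14.8 and 25.4 FPKM, a difference of 0.51 between the NANOG libraries. The low gene CLIC3, a chloride channel family member that acts in endosomal recycling, was at 0.465, 1.03 and 1.94 FPKM, and its difference of -1.01 between the HDAC1 siRNA library and the empty vector passed 2-fold. Of 6 transcripts that ESRPs splice, 4 were lower and 2 higher with NANOG (median -0.11), and 2 were lower and 4 higher with HDAC1 siRNA (median 0.09). FGFR2, which encodes a fibroblast growth factor receptor, was at 13.1, 18.6 and 20.3 FPKM, and CD44, the hyaluronan receptor gene, at 212, 186 and 201 FPKM.

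**Figure D4:**
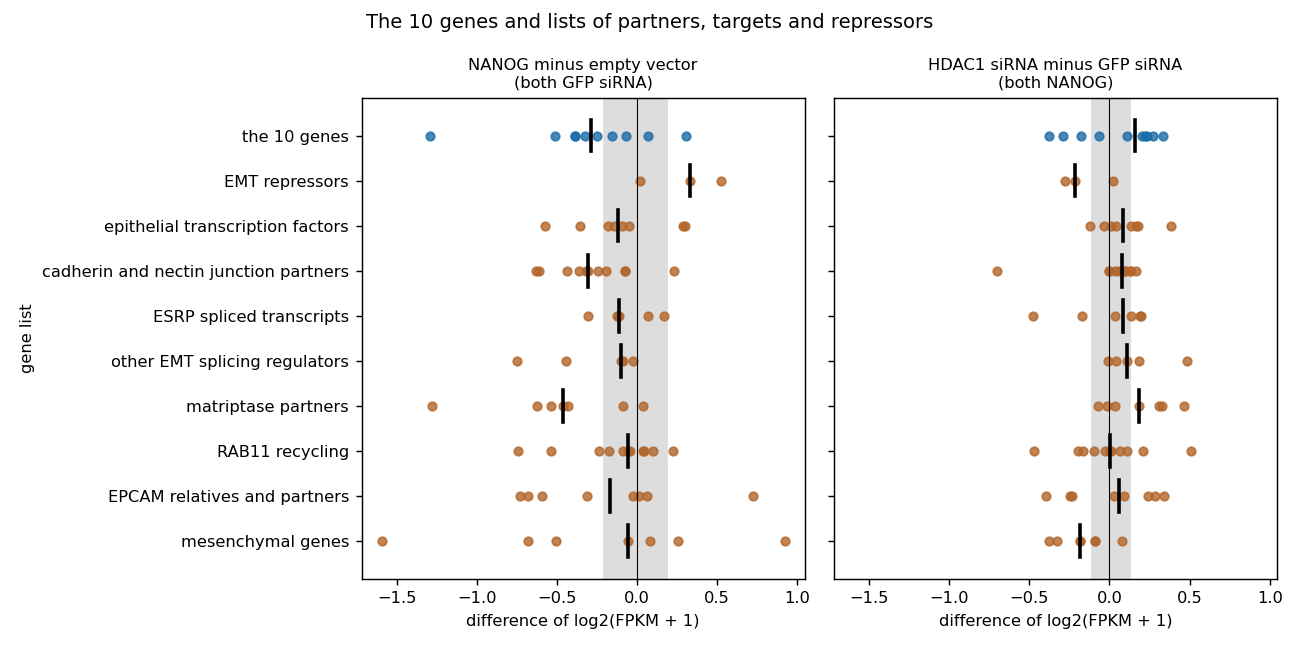
Differences of log2(FPKM + 1) for the 10 genes (blue) and the measured genes of each list (brown), with a black bar at each median and grey from the 25th to the 75th percentile of all genes compared. With NANOG the medians run from -0.46 for matriptase partners to 0.33 for the repressors, and with HDAC1 siRNA from -0.21 for the repressors to 0.19 for matriptase partners; both comparisons use the library of NANOG cells with GFP siRNA.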

How the data were processed

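Total RNA from 3 libraries of CaSki cells, 1 per group, was compared, with groups taken from the sample titles. Per the labels' protocols, RNA was extracted with Trizol before stranded total RNA libraries were built with a TruSeq kit. The submitters' processing notes name TopHat2, Cufflinks and hg19. Neither versions nor the annotation nor the handling of strand is stated there, so whether fragments of overlapping antisense genes were kept apart is unknown. The authors deposited FPKM values, 1 per symbol and library. FPKM divides by library size and length, so a few abundant RNAs lower all other values of a library.

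From these values, 1640 small RNA symbols were left out, and 11399 genes averaging 1 FPKM or more over the libraries were compared as differences of log2(FPKM + 1), with a pseudocount of 1 FPKM, which understates the differences of low genes. A difference of at least 1 in size was called. There was no test. A gene was of similar level when its mean was within 2-fold. Steps were tested on simulated data. The genes, the 10 companion lists and the 4 marker lists were chosen with earlier results of these data known. Named genes were the 10 genes, NANOG, HDAC1 and, per companion list, up to 4 measured genes with the largest difference in any comparison, plus those listed at 0; names outside this rule, relatives and paralogs included, were chosen after their values were seen. List counts and medians cover every measured member, a few of which are not reported here by name. Alternatives were other pseudocounts, filters, scalings and thresholds. Python 3.11.15, numpy 2.4.6, pandas 2.3.3 and matplotlib 3.10.9 were used.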

Additional observations from a re-analysis of the deposited data

How the results depend on the processing

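Without replicates, a median or a single gene was counted as moved when it shifted by more than the robust SD of all genes (0.29 for NANOG against empty vector, 0.17 for HDAC1 siRNA against GFP siRNA, 0.23 for the HDAC1 siRNA library against empty vector). A count of genes was taken as moved when it changed, unless the old and new counts were both above 0 and within 1.5-fold. The counts of the 10 genes called were unchanged by pseudocounts of 0.1 and 0.5 FPKM, by no filter and a filter at 5 FPKM, and by rescaling to the same upper quartile or to a median ratio of 0; OVOL1 was below the filter at 5 FPKM. At 3-fold, 0 of the 10 genes were lower in NANOG cells with GFP siRNA and 0 in those with HDAC1 siRNA, each against empty vector. Of all 11399 genes, 32 and 23 were. At 1.5-fold, 2 of the 10 were lower in NANOG cells with HDAC1 siRNA, where 392 of all genes were, against 92 at 2-fold. TPM gave 0 called genes in that comparison, where MUC1 was at -0.94, and a median of 0.34 for HDAC1 siRNA against GFP siRNA, since it moved the median of all genes to 0.13 and 0.18. The TPM sum kept the small RNA symbols that were left out elsewhere. They held 16.0% of it with NANOG and HDAC1 siRNA, 23.1% with NANOG and GFP siRNA and 21.2% with the empty vector. MUC1 against empty vector lay between -1.36 and -1.26 with GFP siRNA. Over all genes, TPM turned the split for HDAC1 siRNA against GFP siRNA to 21 higher and 16 lower, against 10 and 24 as deposited, and for the HDAC1 siRNA library against empty vector to 70 and 77, against 42 and 92. Over all genes a pseudocount of 0.1 FPKM gave 138 higher and 214 lower for NANOG against empty vector, against 77 and 137, 21 and 47 for HDAC1 siRNA against GFP siRNA, and 79 and 135 for the HDAC1 siRNA library against empty vector. Of the values for single genes and lists, 43 of 627 moved. Under TPM, each of the 10 genes except OVOL1 moved for HDAC1 siRNA against GFP siRNA. A change of filter cannot alter the difference of a single gene, so those values could not move. No paired analysis was possible because each group has 1 library. Leaving out a replicate was not possible either, and the unknown depth limits low genes such as OVOL1 most.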

Other observations

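Mesenchymal genes, the usual counterpart of these epithelial genes, differed in both directions with NANOG, where 50.8% of all genes were lower. Of 11 listed genes 7 were measured at a mean of 1 FPKM or more, and 4 were lower and 3 higher in NANOG cells with GFP siRNA than in empty vector cells (median -0.05; 0.26 with a filter at 5 FPKM). VIM, which encodes the intermediate filament vimentin, was at 52.9 FPKM with NANOG and HDAC1 siRNA, 50.04 FPKM with NANOG and GFP siRNA and 26.0 FPKM with the empty vector. FN1, which encodes fibronectin, went the other way, at 76.5, 87.0 and 264 FPKM in these same libraries. FN1 alone of the 7 was called, at -1.59 with GFP siRNA and -1.78 with HDAC1 siRNA, each against empty vector. VIM was at 0.92 and 0.9995 in the same comparisons. The second value fell just short of the call because of the pseudocount of 1 FPKM. With VIM higher and CDH1 lower, the ratio of CDH1 to VIM in FPKM was 1.08, 1.40 and 3.54. Of the mesenchymal genes that ratio uses VIM alone, and FN1 was lower in both NANOG libraries. TAGLN and S100A4, a smooth muscle actin-binding gene and a calcium-binding gene, were at 1.29, 1.43 and 2.90 FPKM and at 2.28, 2.50 and 3.95 FPKM. With HDAC1 siRNA against GFP siRNA, 6 of the 7 were lower (median -0.18), where 46.6% of all genes were. Under TPM 4 of the 7 were lower, where 18.7% of all genes were.

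All 5 other splicing regulators of the epithelial-mesenchymal transition were lower with NANOG (median -0.10), none by 2-fold, where 50.8% of all genes were lower. After rescaling to the same upper quartile 4 were lower, where 47.3% of all genes were. MBNL1 at -0.10, RBM47 at -0.09 and PTBP1 at -0.03 lay between the 25th and 75th percentile of all genes (-0.21 to 0.19). QKI, an RNA-binding protein gene that favours mesenchymal splice forms, was at 12.2 FPKM with NANOG and HDAC1 siRNA, 8.45 FPKM with NANOG and GFP siRNA and 14.8 FPKM with the empty vector. RBFOX2, another regulator of such splice forms, was at 22.1, 20.4 and 28.1 FPKM. Their order of libraries was the same as that of ESRP1 and ESRP2.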
